A study of Mus musculus with 8 samples.

Results

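The 10 genes followed here were measured through 8 RNA-seq libraries of mouse embryonic stem (ES) cells: the growth factor gene Fgf4, the receptor genes Fgfr1 and Fgfr2, the feedback inhibitor genes Spry2, Spry4, Spred1 and Dusp6, the transcription factor genes Etv4 and Etv5, and the ubiquitin ligase adaptor gene Klhl13. They were chosen by name, with earlier KO against WT results of the same libraries known, and their identifiers were matched without version number. All 10 were found among the 43309 genes of the table, and all 10 were among the 16816 genes that reached 10 counts in at least 1 library and were tested. The cells were of strain J1 (129SV), grown in serum medium on gelatin without feeder cells, and were either Zbtb24 wild type (WT, 2lox/+) or Zbtb24 knockout (KO, 1lox/1lox). The cDNA was amplified with 10 PCR cycles where 1000 cells (roughly 10 ng of RNA) were lysed and with 18 cycles where 100 cells (roughly 1 ng) were lysed, so cell number and PCR cycles changed together. Each of the 4 combinations held 2 libraries, and the labels did not name the clone behind a library. The study described clones of ES cells as its replicates, and more clones for each genotype than there were libraries in a group. The p-values therefore measure the spread between these libraries.

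FGF4 is secreted by ES cells and acts back on them through FGFR1 and FGFR2, whose adaptors activate RAS and, through RAF and MEK, the kinase ERK. ERK signalling prepares ES cells to leave the pluripotent state, and the same signal induces its own brakes, the Sprouty and Spred proteins and the phosphatase DUSP6, together with the ETS factors ETV4 and ETV5. KLHL13 is a substrate adaptor of the CUL3 ubiquitin ligase, encoded on the X chromosome.

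The genotype labels could not be read from the targeted gene. Zbtb24 received 244 and 201 counts in the WT libraries of 1000 cells, 526 and 545 in the KO libraries of 1000 cells, 197 and 269 in the WT libraries of 100 cells and 532 and 494 in the KO libraries of 100 cells. Its level was higher in the libraries labelled KO at both inputs (log2 ratio 1.37, adjusted p = 4.309e-11 at 1000 cells, and 0.91, adjusted p = 0.001105 at 100 cells, edgeR). A count over the whole gene does not show whether a segment was deleted, so libraries are called labelled KO and labelled WT, and each direction below compares those labels. Total counts ran from 9666985 to 16686525. The 2 labelled WT libraries of 100 cells differed more from each other than the libraries of any other group, with a chi-square per degree of freedom of 15.9 against 1.90 to 3.06. Markers of brain cells were raised in both labelled KO libraries of 100 cells. The summed level of 7 oligodendrocyte markers was 202 and 208 cpm there and 40.1 to 51.9 cpm in the other 6 libraries. Here cpm are counts per 1000000 of library size, the size being adjusted by the TMM scaling factor. At 100 cells, 6 of 6 tested oligodendrocyte markers, 8 of 10 neuronal markers and 4 of 6 astrocyte markers were higher in labelled KO, against 1, 2 and 1 at 1000 cells. In the same order, 0, 1 and 1 were lower at 100 cells and 0, 3 and 1 at 1000 cells. Of all tested genes, 17.6% were higher and 16.6% lower at 100 cells, and 20.9% and 20.6% at 1000 cells. None of the defining markers was at 0 in the 2 labelled KO libraries of 100 cells: Mbp, of myelin, averaged 104 cpm and Snap25, of synapses, 80.3 cpm, against 1.34 and 1.91 cpm in labelled WT of 100 cells. Summed astrocyte markers were 253 and 247 cpm there and 169 to 214 cpm elsewhere, and summed neuronal markers were 544 and 566 cpm against 409 to 539 cpm. The summed level of 7 fibroblast and feeder markers was also highest there, at 5.82 and 6.12 cpm, against 3.06 to 4.25 cpm in labelled WT and 2.17 and 1.73 cpm in labelled KO of 1000 cells. The summed level of 8 pluripotency markers was 3782 to 4128 cpm in the 4 labelled KO libraries, all above the 3230 to 3604 cpm of labelled WT, with 4 markers called higher at each input and 2 and 1 lower at 1000 and 100 cells. That of 10 primitive endoderm markers was 31.8 to 47.6 cpm, with 1 called higher at 1000 cells and 1 higher and 1 lower at 100 cells. The part of these markers in the members' results was not tested. In lysates, fewer cells of a type and less RNA per cell cannot be told apart.

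Promoter sequence from RefSeq (GRCm38.p6) was used for 7 of the 10 genes and not for Fgfr1, Spry4 and Etv4. Of the 4 members whose labelled KO libraries all lay below all labelled WT libraries, Klhl13 and Dusp6 have a window. The 250 bases before the outermost Klhl13 start (chrX:23365083-23365332, minus strand) and the Dusp6 start (chr10:99262981-99263230, plus strand) are shown 5′ to 3′, with a match to the ETS core CCGGAAG or its reverse complement CTTCCGG in capitals.
Klhl13: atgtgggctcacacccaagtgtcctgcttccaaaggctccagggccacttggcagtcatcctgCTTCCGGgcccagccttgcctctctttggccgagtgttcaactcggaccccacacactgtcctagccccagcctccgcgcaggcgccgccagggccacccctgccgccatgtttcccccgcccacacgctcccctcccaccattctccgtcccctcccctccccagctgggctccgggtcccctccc
Dusp6: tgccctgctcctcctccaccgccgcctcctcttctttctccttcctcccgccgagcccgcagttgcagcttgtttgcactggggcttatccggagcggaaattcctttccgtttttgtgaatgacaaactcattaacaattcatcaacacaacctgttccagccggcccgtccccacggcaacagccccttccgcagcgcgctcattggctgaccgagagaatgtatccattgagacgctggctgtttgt
The Klhl13 window shown held 1 match, which begins 187 bases before the start, and the Dusp6 window held none. An overlapping Klhl13 window held the same match, and the windows before the inner Klhl13 starts held none. Matches on either strand were present in 6.91% of 32851 RefSeq windows of the same length, and in any window of 7.83% of 27025 genes. A ZBTB24 core, CAGGACCT or AGGTCCTG, was present in 1.63% of windows and in none of the windows used for these 7 members. The Klhl13 window shown held 12 CpG and was 68.4% G and C, and the Dusp6 window held 16 CpG and was 56.4% G and C, against a median of 6 CpG over all windows. These matches describe letters and are not evidence of binding.

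In the labelled WT libraries of 1000 cells, the members spanned more than 2 orders of magnitude in cpm per kb of exon. Klhl13 was highest, at 167 ± 2.48 cpm per kb (SD, n = 2), followed by Etv5 at 75.9 ± 1.03 and Fgf4 at 37.2 ± 0.843. Spry4, Dusp6 and Etv4 lay between 15.9 and 19.5 cpm per kb, and the ranges of Dusp6 and Etv4 overlapped. Spry2 (9.39), Spred1 (6.30) and Fgfr1 (2.92) followed, and Fgfr2 was lowest at 0.674 ± 0.0129 cpm per kb. The order depends on the division by exon length, and the study found coverage of SMARTer libraries biased toward the 3′ end of transcripts. In cpm without that division, Spred1 (42.8) and Fgfr1 (28.8) lay above Spry2 (19.6). In the labelled KO libraries of 1000 cells the order began with Etv5 (75.6), Fgf4 (46.3) and Klhl13 (28.5 ± 0.116 cpm per kb). Spry2, Spred1 and Etv4 lay there at 8.62, 8.58 and 8.11 cpm per kb, and neighbours among these overlapped.

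**Figure D1:**
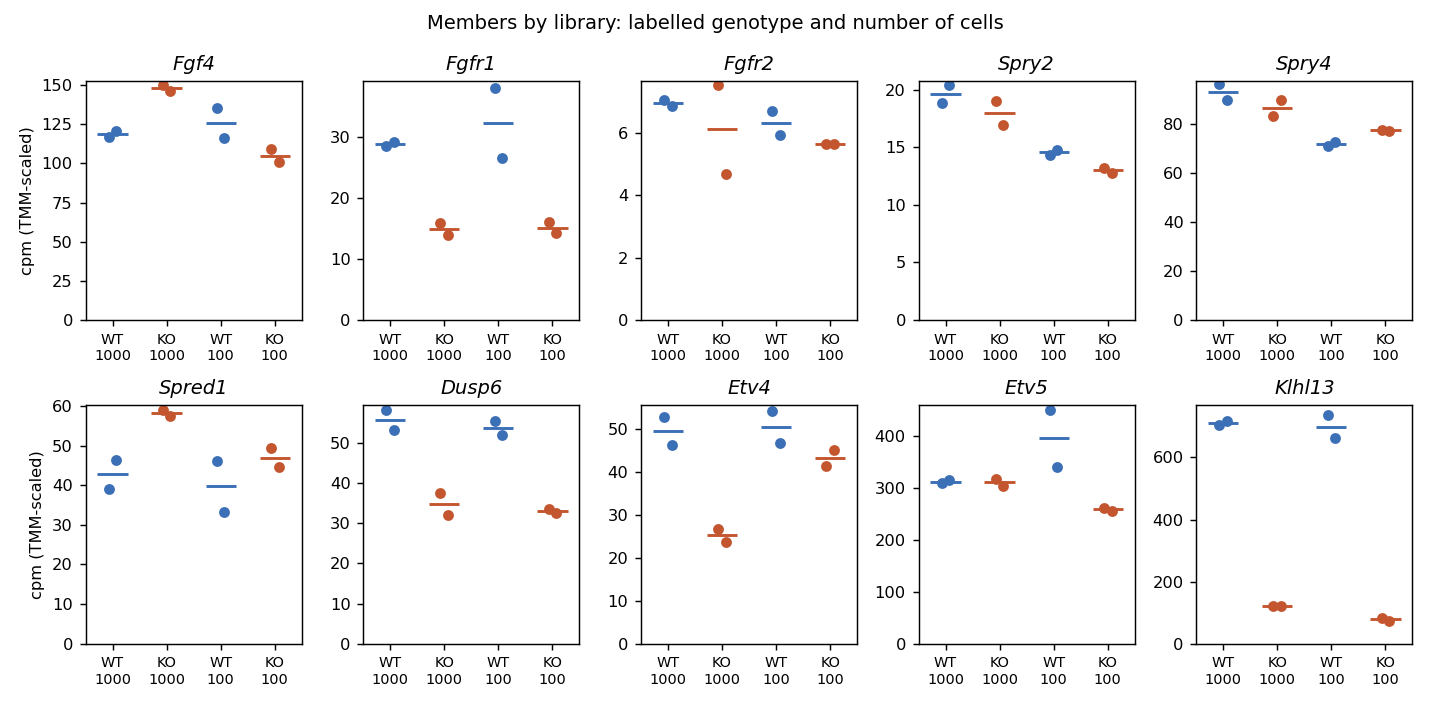
Levels of the 10 members in each library, in TMM-scaled cpm (y axis, linear, from 0), with points for the 2 libraries of each group, bars for their mean, blue for labelled WT and orange for labelled KO. Klhl13 stood at 661 to 737 cpm in the 4 labelled WT libraries and at 74.5 to 122 cpm in the 4 labelled KO libraries.

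Klhl13 (GRCm38 X:23219271-23365082, minus strand, protein-coding) differed most between the labelled genotypes. Replicates 1 and 2 had 703 and 718 cpm in labelled WT and 121 and 122 cpm in labelled KO at 1000 cells, and 737 and 661 cpm in labelled WT and 82.6 and 74.5 cpm in labelled KO at 100 cells. The 4 labelled KO libraries were all below the 4 labelled WT libraries, and the 2 inputs of labelled KO did not overlap either. The level was 5.85-fold lower in labelled KO at 1000 cells (log2 ratio −2.55, SE 0.0615) and 9.17-fold lower at 100 cells (log2 ratio −3.20, SE 0.123). Under 12 alternatives for each input the log2 ratio stayed between −2.64 and −2.52 and between −3.27 and −3.11. Alternatives without 1 library left 1 in its group, so their spread came only from groups that kept 2. Here and below, a call gained or lost in such a fit also depends on which groups those were. Counts were high throughout, from 987 to 12162, so counting error is small beside these differences. An exon of the non-coding gene Gm14523 on the same strand covers 2.54% of the Klhl13 exon length, and Gm14523 received 0 to 2 counts.

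Within labelled WT, Klhl13 did not pass the threshold between inputs, with a log2 ratio of 100 to 1000 cells of −0.04 (SE 0.117, adjusted p = 0.9434, edgeR). Within labelled KO it fell by 0.62 on the log2 scale (SE 0.0654, adjusted p = 8.304e-10, edgeR). The fall was past the threshold of 0.05 under all 12 alternatives. The KO to WT ratio was 0.60 lower on the log2 scale at 100 than at 1000 cells (SE 0.128), a difference that was called in the fit of all 8 libraries but not without replicate 2 of labelled KO at 1000 cells (−0.60) or replicate 2 of labelled KO at 100 cells (−0.53). The brain marker sums above separate the same 2 inputs of labelled KO, and their part was not tested.

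The X chromosome as a whole did not share the low level of Klhl13. Over 297 X-linked genes averaging 10 cpm or more, the middle log2 KO to WT ratio was 0.09 in the larger and −0.07 in the smaller input, and Klhl13 ranked 3 and 4 from the lowest. The 1 tested protein-coding gene within 0.5 Mb, Wdr44, had 14.1 ± 3.71 cpm in labelled WT and 13.9 ± 0.979 cpm in labelled KO at 1000 cells (log2 ratio −0.003, adjusted p = 0.9936, edgeR). At 100 cells it had 14.0 ± 0.605 and 6.74 ± 2.06 cpm and fell in labelled KO (log2 ratio −1.09, adjusted p = 0.006078, edgeR). That call was lost without replicate 2 of labelled KO at 100 cells (log2 ratio −0.82, adjusted p = 0.1162). Over the 8 libraries, the genes whose profile was nearest that of Klhl13 among 8364 candidates were Zp3, Gm26818 and 4933427J07Rik. Their root mean square difference from Klhl13, on centred log2(cpm + 0.5), was 0.116, 0.204 and 0.252. Zp3, which encodes an egg coat glycoprotein, averaged 23.4 and 4.14 cpm in labelled WT and KO at 1000 cells and 26.1 and 2.59 cpm at 100 cells. Gm26818 also lies on the X chromosome and averaged 34.0 and 4.49 cpm at 1000 cells and 31.9 and 2.55 cpm at 100 cells, in the same order.

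The ligand gene Fgf4 (GRCm38 7:144847367-144865243, plus strand) turned direction with cell number. At 1000 cells it had 117 and 121 cpm in labelled WT and 150 and 146 cpm in labelled KO, the labelled KO libraries being higher. At 100 cells it had 135 and 116 cpm in labelled WT and 109 and 101 cpm in labelled KO, the labelled KO libraries being lower without overlap. Its log2 ratio was 0.32 (SE 0.067) and called at 1000 cells, and −0.31 (SE 0.117) and not called at 100 cells. The latter was called in a fit of all 8 libraries (−0.26) and with a replicate block (−0.30). It was −0.18 without replicate 1 of labelled WT and −0.40 without replicate 2. Between inputs, Fgf4 fell in labelled KO by 0.49 on the log2 scale (SE 0.0615, adjusted p = 3.085e-08, edgeR), while labelled WT gave 0.07 (SE 0.125, adjusted p = 0.8956). The difference between the 2 genotype ratios was −0.58 (SE 0.133) and called, but not without replicate 1 of labelled WT at 1000 cells (−0.55), replicate 2 of labelled KO at 1000 cells (−0.59) or replicate 2 of labelled KO at 100 cells (−0.52).

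**Figure D2:**
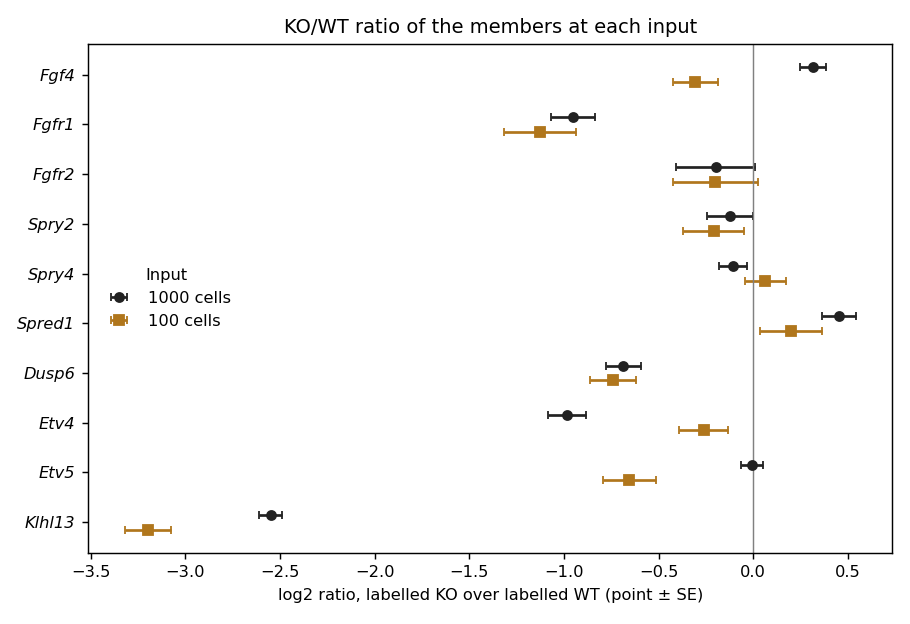
Log2 ratio of labelled KO to labelled WT (x axis) for each member (y axis) at 1000 cells (circles) and 100 cells (squares), with 2 libraries per group and bars for the SE of the edgeR fit. Klhl13, Fgfr1, Fgfr2, Spry2, Dusp6, Etv4 and Etv5 lay below 0 at both inputs, Etv5 at −0.01 for 1000 cells, Spred1 lay above 0, and Fgf4 and Spry4 differed in sign between inputs.

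Among the receptors, Fgfr1 (GRCm38 8:25513654-25575718, plus strand), which encodes the main FGF receptor of ES cells, was lower in all labelled KO libraries. The labelled WT libraries had 28.5 and 29.1 cpm at 1000 cells and 37.9 and 26.5 cpm at 100 cells. The labelled KO libraries had 15.8 and 14.0 cpm at 1000 cells and 16.0 and 14.3 cpm at 100 cells, so the groups did not overlap and the widest pair was labelled WT at 100 cells. Fgfr1 gave a log2 ratio of −0.95 (SE 0.116) with 1000 cells and of −1.13 (SE 0.192) with 100 cells. Cell number did not shift Fgfr1 past the threshold in labelled WT (log2 ratio 0.14, adjusted p = 0.8124) or labelled KO (log2 ratio 0.03, adjusted p = 0.8593, edgeR). Without replicate 2 of labelled WT at 100 cells the first of these became 0.41. An antisense gene, Gm16159, covers 1.66% of Fgfr1 exon length and received 0 to 8 counts.

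Fgfr1 lies in the first 60 Mb of chromosome 8, where most genes were lower in labelled KO. Of 140 genes there that averaged 10 cpm or more, 121 were called lower and 3 higher at 1000 cells. At 100 cells 106 were called lower and 0 higher. Of 333 such genes further along the chromosome, 127 were lower and 68 higher at 1000 cells, and 77 and 48 at 100 cells. Of all 8365 such genes, 2284 were lower and 2541 higher at 1000 cells, and 1776 and 1443 at 100 cells. The regional median was a log2 ratio of −0.53 for 1000 cells and −0.63 for 100 cells, against −0.08 and −0.09 over 333 genes further along the chromosome. The log2 ratio of Fgfr1 minus the regional median was −0.42 at 1000 cells and −0.50 at 100 cells, and 13.6% and 8.57% of the region's genes were lower still. At 100 cells the relative value ranged from −0.75 without replicate 2 of labelled WT to −0.22 without replicate 1 of labelled WT. Among 17 tested protein-coding genes within 0.5 Mb of Fgfr1, 15 passed as lower with 1000 cells and 10 with 100 cells, with median log2 ratios of −0.58 and −0.84. Of all tested genes, 20.6% and 16.6% were called lower at these inputs.

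**Figure D3:**
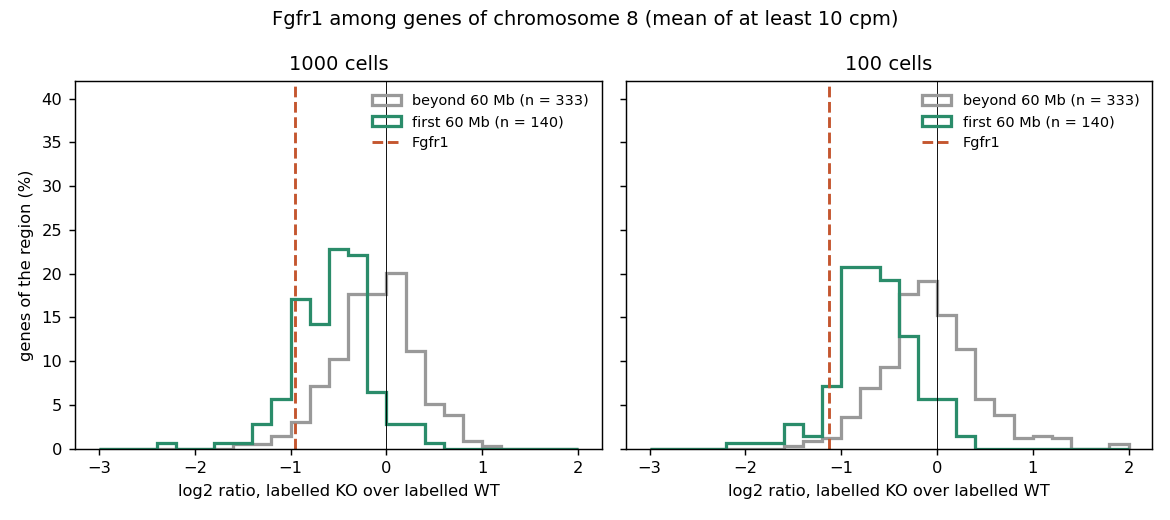
Distribution of labelled KO to labelled WT log2 ratios (x axis) of chromosome 8 genes averaging 10 cpm or more, as a percentage of the genes of each region (y axis), at 1000 cells (left) and 100 cells (right). The 140 genes of the first 60 Mb (green) centred on −0.53 and −0.63, left of the 333 genes beyond (grey), the dashed line marks Fgfr1 at −0.95 and −1.13, and ratios beyond the axis were placed in the end bins.

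Fgfr2, the receptor associated with primitive endoderm, was the lowest member. The 1000-cell libraries had 7.06 and 6.87 cpm in labelled WT and 7.53 and 4.70 cpm in labelled KO, and the 100-cell libraries had 6.72 and 5.96 cpm in labelled WT and 5.67 and 5.66 cpm in labelled KO. The genotypes overlapped at 1000 cells and were separated by a narrow gap at 100 cells. The log2 ratio was −0.20 at both inputs (SE 0.209 and 0.224), and at 1000 cells it turned to 0.11 when replicate 2 of labelled KO was left out and was −0.56 without replicate 1. It rested on 68 to 122 counts per library, and 3.04% of its annotated exon length is shared with Ctbp2, a gene at 103 to 150 cpm by group.

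The 4 feedback inhibitors did not behave as 1 group. Dusp6 (GRCm38 10:99263231-99267489, plus strand), the phosphatase that removes activating phosphates from ERK, was lower in every labelled KO library. It had 58.2 and 53.1 cpm in labelled WT and 37.6 and 32.0 cpm in labelled KO at 1000 cells, and 55.4 and 51.9 against 33.6 and 32.6 cpm at 100 cells. The log2 ratios were −0.69 (SE 0.0943) and −0.74 (SE 0.121), both called, the second not without replicate 2 of labelled KO at 100 cells (−0.73). Dusp6 did not pass the threshold between inputs, with log2 ratios of −0.07 in labelled WT (SE 0.135, adjusted p = 0.8999) and −0.07 in labelled KO (SE 0.0915, adjusted p = 0.5736, edgeR). Nearest to its profile over the 8 libraries were Gtse1, a regulator of p53 in the cell cycle, Acd, a telomere protein gene, and Gm13147, with root mean square differences of 0.0723, 0.0746 and 0.0753 on the same scale.

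Spred1 (GRCm38 2:117121374-117182279, plus strand), which holds back RAF activation, pointed the other way. At 1000 cells it had 39.2 and 46.4 cpm in labelled WT and 59.0 and 57.3 cpm in labelled KO, with no overlap (log2 ratio 0.45, SE 0.0904). At 100 cells it had 46.0 and 33.3 cpm in labelled WT and 49.3 and 44.5 cpm in labelled KO, with overlap (log2 ratio 0.20, SE 0.164), and the ratio ran from −0.01 to 0.46 as libraries were left out. The higher value came without replicate 1 of labelled WT and the lower without replicate 2. Spry2 (GRCm38 14:105891947-105896819, minus strand) had 18.9 and 20.4 cpm in labelled WT and 19.0 and 16.9 cpm in labelled KO at 1000 cells, and 14.3 and 14.8 against 13.2 and 12.8 cpm at 100 cells. Spry4 had 96.1 and 89.4 against 82.9 and 89.5 cpm at 1000 cells, and 70.7 and 72.4 against 77.3 and 77.1 cpm at 100 cells. At 1000 cells the groups overlapped for both, and at 100 cells the labelled KO libraries were all lower for Spry2 and all higher for Spry4. Neither Sprouty gene was called between genotypes, with log2 ratios of −0.12 and −0.21 for Spry2 and −0.11 and 0.06 for Spry4 (SE 0.075 to 0.162). Scaling by library size alone gave −0.19 for Spry4 at 1000 cells, which was called.

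Spry2, Spred1 and Spry4 were lower at 100 than at 1000 cells in labelled KO. Spry2 fell by 0.46 on the log2 scale (SE 0.122, adjusted p = 0.00174, edgeR), and its value in labelled WT, −0.44 (SE 0.173, adjusted p = 0.2916), missed the threshold. Spred1 fell by 0.31 in labelled KO (SE 0.0775, adjusted p = 0.001151), a call lost without replicate 2 of labelled KO at 100 cells (−0.23, adjusted p = 0.06106) and in 1 fit of all 8 libraries (−0.31, adjusted p = 0.08521). Spry4 fell by 0.16 in labelled KO (adjusted p = 0.04921, edgeR), a call lost under 9 of 12 alternatives, and had −0.39 (adjusted p = 0.1758) in labelled WT. Without replicate 1 or replicate 2 of labelled WT at 100 cells, the Spry4 value in labelled WT was −0.39 and −0.38. Without replicate 1 of that group, the values in labelled WT were −0.44 for Spry2 and −0.39 for Spred1.

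The ETS factors Etv4 (GRCm38 11:101769742-101785371, minus strand) and Etv5 (GRCm38 16:22381309-22439719, minus strand), both induced by ERK, were each called between genotypes at 1 input, Etv4 at 1000 cells and Etv5 at 100 cells. Etv4 had 52.8 and 46.2 cpm in labelled WT and 26.8 and 23.6 cpm in labelled KO at 1000 cells, and 54.0 and 46.6 against 41.3 and 45.2 cpm at 100 cells. The labelled KO libraries were lower at both inputs, by a wide gap at 1000 cells (log2 ratio −0.98, SE 0.101, called). At 100 cells the gap was narrow (log2 ratio −0.26, SE 0.131, not called). That ratio was −0.36 without replicate 2 of labelled WT and −0.14 without replicate 1. Etv4 was the 1 member called higher at 100 than at 1000 cells in labelled KO (log2 ratio 0.79, SE 0.0917, adjusted p = 8.598e-09, edgeR), and in labelled WT the value was 0.01 (adjusted p = 0.9979). The genotype ratios differed by 0.76 (SE 0.169), called except without replicate 1 of labelled WT at 1000 cells (0.66), replicate 2 of labelled KO at 1000 cells (0.67) or replicate 2 of labelled KO at 100 cells (0.70).

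Etv5 was the second highest member per kb in labelled WT and the highest in labelled KO. It had 308 and 314 cpm in labelled WT and 316 and 304 cpm in labelled KO at 1000 cells, where the groups overlapped (log2 ratio −0.01, SE 0.0592), and the sign turned without replicate 2 of labelled KO (0.03) or of labelled WT (0.008). At 100 cells it had 450 and 340 cpm in labelled WT and 262 and 256 cpm in labelled KO, with no overlap and a wide gap between the labelled WT libraries (log2 ratio −0.66, SE 0.14). The call at 100 cells was lost without replicate 1 (−0.67) or replicate 2 (−0.64) of labelled KO, and the value was −0.43 without replicate 1 and −0.84 without replicate 2 of labelled WT. In labelled KO, Etv5 fell from 1000 to 100 cells by 0.26 (SE 0.0526, adjusted p = 0.0001041, edgeR), a call lost in 1 fit of all 8 libraries (adjusted p = 0.07475), and in labelled WT the value was 0.33 (SE 0.137, adjusted p = 0.3277). Without replicate 2 of labelled WT at 100 cells the latter became 0.55. The genotype ratios differed by −0.60 (SE 0.154), called with all libraries and lost without any 1 of the 1000-cell libraries or of the labelled KO libraries of 100 cells (−0.63 to −0.59), and the value was −0.39 and −0.79 without replicate 1 and 2 of labelled WT at 100 cells. A gene model, Gm4798, shares 24.5% of the 50-base windows of Etv5, and fragments that matched several positions were left out of the counts.

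Counted over the 10 members, 6 were called between labelled genotypes at 1000 cells (2 higher, 4 lower), where 41.5% of all tested genes were called, 20.9% higher and 20.6% lower. At 100 cells 4 were called, all lower, against 34.2% of tested genes, 17.6% higher and 16.6% lower, and 3 were called lower at both inputs, where 7.52% of tested genes were higher and 9.24% lower at both. The median over the members was a log2 ratio of −0.16 for 1000 cells and −0.28 for 100 cells, against medians near 0 over all tested genes. Labelled KO and WT libraries did not overlap for 6 members at 1000 cells, where 69.3% of genes did not, for 9 members at 100 cells, against 70.1%, and for 4 members over all 8 libraries, against 28%. The members were proposed with these contrasts known, so nothing is read from their counts. From 1000 to 100 cells, 0 members were called in labelled WT, where 0.827% of genes were called by edgeR, 12.2% had an unadjusted p under 0.05 and DESeq2 called 212 genes. In labelled KO 7 were called, 6 lower and 1 higher, against 52.1% of tested genes, 24.8% lower and 27.3% higher. The ratios of 4 members differed between inputs (Fgf4, Etv4, Etv5 and Klhl13), against 16.3% of tested genes, 9.28% with a higher and 7.05% with a lower ratio at 100 cells. These comparisons share libraries.

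Other genes of the pathway were read from lists of ligands, receptors and adaptors, RAS-ERK kinases, feedback inhibitors, ERK-responsive and ETS genes, and KLHL adaptors with CUL3. The lists held 90 tested genes outside the members, of which 11 were higher and 9 lower in labelled KO at both inputs, where 7.52% and 9.24% of all tested genes were. Adjusted p-values below are from edgeR over all tested genes. The lists were chosen with earlier results of these libraries known, so these values are not an independent test of the lists. None of the 90 genes was called between inputs within labelled WT, where 0.827% of all tested genes were.

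Of 8 feedback inhibitors outside the members, 0 were higher and 3 lower at each input in labelled KO. Of all tested genes, 20.9% were higher and 20.6% lower at 1000 cells, and 17.6% and 16.6% at 100 cells. The medians of these 8 genes were −0.44 and −0.28 on the log2 scale. Il17rd, a membrane inhibitor of FGF receptor signalling, fell from 16.8 ± 0.428 to 11.2 ± 0.226 cpm at 1000 cells (log2 ratio −0.58, adjusted p = 0.0008029) and from 13.3 ± 0.895 to 8.73 ± 1.57 cpm at 100 cells (log2 ratio −0.65, adjusted p = 0.02981). Dusp4, a nuclear ERK phosphatase, fell from 4.25 to 1.90 cpm at 1000 cells (log2 ratio −1.15, adjusted p = 0.0009314) and from 7.36 to 3.49 cpm at 100 cells (log2 ratio −1.12, adjusted p = 0.008581). Spry1 fell at 1000 cells (log2 ratio −0.61, adjusted p = 0.00579, lost in DESeq2 at 0.06168) and had −0.04 at 100 cells (adjusted p = 0.9191). A gene on the opposite strand covers 24.4% of the Spry1 exon length. Dusp7 fell at 100 cells (log2 ratio −0.60, adjusted p = 0.03125) and had −0.30 at 1000 cells (adjusted p = 0.116), a value called at −0.39 with library size alone (adjusted p = 0.04374). The calls at 100 cells of Dusp7 and Il17rd were lost in DESeq2 (adjusted p = 0.143 and 0.1003) and with every gene of at least 1 count (0.05706 and 0.05561). The difference between inputs was not past the threshold for Spry1 (0.62, adjusted p = 0.1623) or Dusp7 (−0.25, adjusted p = 0.4793). Without replicate 1 of labelled KO at 100 cells the calls at that input were lost for Il17rd (−0.84, adjusted p = 0.1124), Dusp4 (−0.95, adjusted p = 0.1488) and Dusp7 (−0.65, adjusted p = 0.2468), and without replicate 2 for Il17rd (−0.48, adjusted p = 0.3955) and Dusp7 (−0.54, adjusted p = 0.3442).

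Of 16 ERK-responsive and ETS genes outside the members, 2 were higher and 6 lower at 1000 cells (20.9% and 20.6% of all tested genes). At 100 cells 1 was higher and 4 lower (17.6% and 16.6%). The median log2 ratios were −0.26 and −0.33. Myc, a growth regulator induced by ERK, fell from 44.6 ± 1.15 to 15.5 ± 0.342 cpm at 1000 cells (log2 ratio −1.53, adjusted p = 1.217e-12) and from 46.5 ± 1.64 to 14.1 ± 0.935 cpm at 100 cells (log2 ratio −1.76, adjusted p = 5.009e-05). Epha4, an ephrin receptor gene, fell from 36.8 to 18.9 cpm at 1000 cells (log2 ratio −0.95, adjusted p = 3.386e-08) and from 29.1 to 8.29 cpm at 100 cells (log2 ratio −1.85, adjusted p = 0.0003089). Elk4, an ETS factor partner of SRF, rose at both inputs (log2 ratios 0.51 and 0.86), and each call was lost in DESeq2 (adjusted p = 0.127 and 0.06457), at 1000 cells without replicate 1 of labelled WT (0.43) or replicate 2 of labelled KO (0.39), and at 100 cells without replicate 1 (0.92) or 2 (0.80) of labelled KO.

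Of 27 genes of the RAS-ERK cascade, 8 were higher and 8 lower at 1000 cells, where 20.9% and 20.6% of all tested genes were, and 5 higher and 3 lower at 100 cells, where 17.6% and 16.6% were. The medians were 0.03 and −0.02. Ptpn11, the phosphatase SHP2 that links receptors to RAS, fell (log2 ratios −0.73, adjusted p = 1.986e-07, and −0.45, adjusted p = 0.02175), as did Hras (−0.62 and −0.50) and Lamtor3, a MEK scaffold gene (−0.35 and −0.82). Nf1, which switches RAS off, rose (0.60, adjusted p = 3.955e-05, and 0.54, adjusted p = 0.04899), as did Rps6ka3, a kinase gene downstream of ERK (0.63 and 0.55), and the MEK gene Map2k1 (0.38 and 0.41). Leaving out either labelled KO library of 100 cells ended the calls at that input for Ptpn11, Hras, Nf1, Rps6ka3 and Map2k1 (adjusted p 0.1176 to 0.3312) but not Lamtor3. DESeq2 did so for Ptpn11 (adjusted p = 0.0721), Rps6ka3 (0.05781) and Nf1 (0.09568), testing every gene of at least 1 count for Map2k1 (0.05031), and the Nf1 call was lost under 6 of 12 alternatives. Grb2, the adaptor between receptors and SOS, fell at 1000 cells (−0.32, adjusted p = 0.003864) and rose at 100 cells (0.38, adjusted p = 0.03071), where leaving out either labelled KO library again ended the call (adjusted p = 0.345 and 0.3401), as did DESeq2 (0.08198).

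Among 13 tested ligand genes outside the members, 3 were higher and 1 lower at 1000 cells (20.9% and 20.6% of all tested genes). At 100 cells 6 were higher and 2 lower (17.6% and 16.6%). Fgf15 rose at both (8.94 to 15.1 cpm and 8.89 to 14.8 cpm, log2 ratios 0.75, adjusted p = 0.0001299, and 0.69, adjusted p = 0.01387), and 25.7% of its exon length overlaps genes on the opposite strand. Fgf1 rose from 0.833 to 6.36 cpm and from 0.676 to 4.73 cpm (adjusted p = 1.545e-08 and 0.002234). Fgf10 fell at both inputs (log2 ratio −1.53 and −3.40), from 6.31 to 2.18 cpm and from 5.04 to 0.487 cpm. The labelled KO libraries of 100 cells held only 7 and 6 Fgf10 counts. Fgf12 averaged 2.70 cpm in labelled KO of 100 cells and was at 0 in labelled WT of 100 cells, the input at which brain markers were raised. Of 9 receptor and adaptor genes outside the members, 2 were higher and 1 lower at 1000 cells (20.9% and 20.6% of all tested genes). At 100 cells 2 were higher and 0 lower (17.6% and 16.6%). Fgfr3 rose at both inputs (log2 ratios 1.58 and 1.17) from levels of 0.725 and 1.73 cpm, and a gene on the opposite strand covers 13.9% of its exon length. Dropping either labelled KO library of 100 cells ended the calls at 100 cells for Fgf15 (adjusted p = 0.2063 and 0.152) and Fgfr3 (adjusted p = 0.3456 and 0.1209), as did DESeq2 (0.05268 and 0.1236).

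Of 17 genes of the KLHL family and its ligase outside the members, 7 were higher and 1 lower at 1000 cells (20.9% and 20.6% of all tested genes) and 5 higher and 1 lower at 100 cells (17.6% and 16.6%). Cul3, the scaffold that KLHL proteins bind, rose from 157 ± 1.05 to 217 ± 13.8 cpm at 1000 cells (log2 ratio 0.46, adjusted p = 1.076e-06) and from 164 ± 8.30 to 229 ± 9.47 cpm at 100 cells (log2 ratio 0.44, adjusted p = 0.01119). Klhl12 rose (0.53 and 0.64), as did Klhl20 (0.65 and 0.49) and, from a low level, Klhl5 (1.73 and 1.47). Klhl21 fell at both inputs (log2 ratio −1.09, adjusted p = 1.265e-05, and −2.17, adjusted p = 0.000782), with 20.5% of its exon length overlapping a gene on the opposite strand. Leaving out either labelled KO library of 100 cells ended the calls at that input for Cul3, Klhl12 and Klhl20 (adjusted p 0.05213 to 0.3583), and DESeq2 did so for Klhl20 (0.09654).

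**Figure D4:**
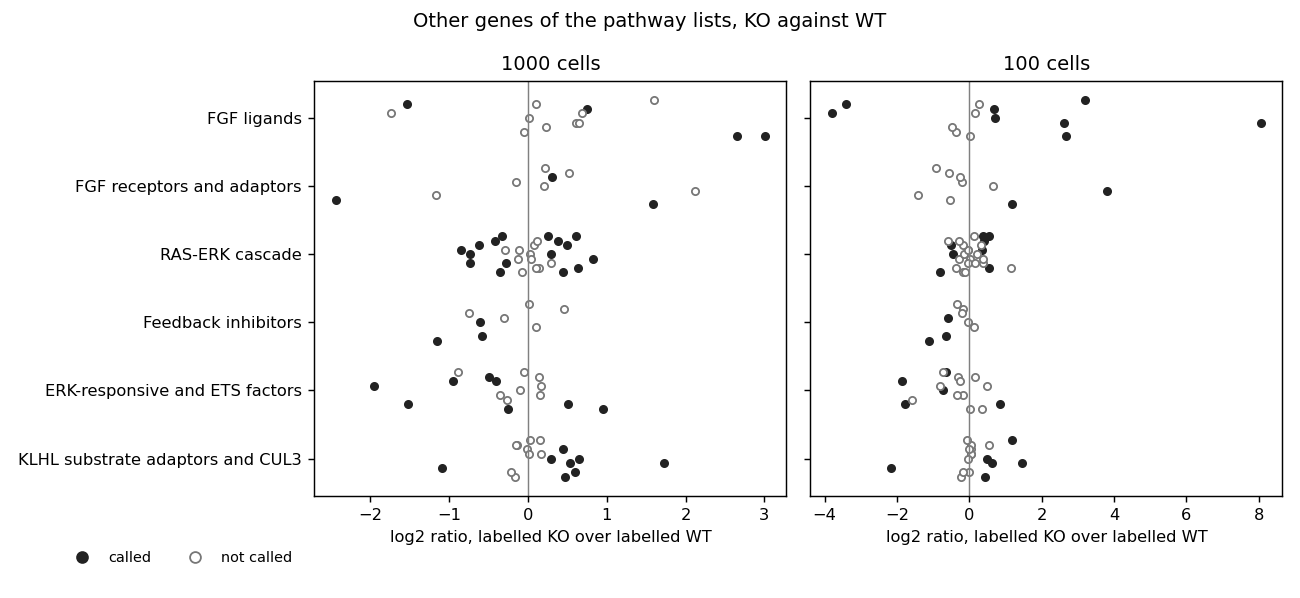
Log2 ratio of labelled KO to labelled WT (x axis, with a wider range at 100 cells) for each tested gene outside the members, by list (y axis), at 1000 cells (left) and 100 cells (right), with filled points for genes called at an adjusted p of at most 0.05. Called feedback inhibitors all lay below 0, called KLHL and CUL3 genes lay above 0 except Klhl21, and the point at 8.06 is Fgf12, whose labelled WT libraries of 100 cells were at 0.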

How the data were processed

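Counts were analysed for 8 SMARTer Ultra Low libraries in 4 groups of 2, grouped by the labels. The deposited counts are raw fragments per gene, made by the authors by removing ribosomal reads with Bowtie2 2.1.0, mapping with TopHat2 2.0.10 to mm10 and counting with HTSeq 0.6.1 over GENCODE genes without regard to strand, so antisense partners cannot be told apart; duplicate removal was not stated. Positions, lengths and overlaps came from GENCODE M21, to which 42425 of 43309 identifiers (97.96%) matched. Genes that reached 10 counts in any 1 library were fitted with edgeR 4.0.16 (R 4.3.3), a quasi-likelihood test after TMM scaling, on the 4 libraries of each contrast, and the difference of ratios on all 8, p-values adjusted by Benjamini-Hochberg across the 16816 genes, and 0.05 as the threshold ("called"). Levels are counts per 1000000 of library size multiplied by the TMM factor of the library (cpm), and likeness used a pseudocount of 0.5. Tests are two-sided.

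The members and lists were chosen with earlier results of these data known. Genotype contrasts of the members are therefore a description, with no p-value. Those of list genes carry p-values adjusted over all tested genes, but from the same libraries. They are not an independent test of the lists. Other genes were named where they were called in the same direction at both inputs with a mean of at least 10 cpm, up to 4 a list, as leading or defining markers, by nearness of profile to Klhl13 or Dusp6, or as tested neighbours of Klhl13. Dusp4, Dusp7, Spry1, Elk4, Hras, Map2k1, Grb2, Fgfr3, Fgf1, Fgf10, Fgf12, Klhl5 and Klhl21 were named after their values were seen. Any p-value given for them is not independent of that choice. Alternatives changed scaling, filter, tool (DESeq2 1.42.0), depth (thinned to the smallest total), the libraries fitted together, a replicate block, or left out 1 library. Leaving out 1 library left 1 in its group, and the spread then came only from groups that kept 2. The script was tested on simulated data. An item of 1 marker list is not reported here and was left out of that list. Libraries of a group differed by 1.90 to 15.9 times the counting variance (chi-square per degree of freedom). Copies made by PCR were not marked by molecular identifiers, so the counts may include them. The SEs and p-values come from fits that estimate the spread between libraries of a group.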

Additional observations from a re-analysis of the deposited data

Results flagged for a closer look

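The labelled KO to labelled WT ratio differed between 100 and 1000 cells for 4 members in the fit of all 8 libraries. The difference of log2 ratios, 100 cells minus 1000 cells, was −0.58 for Fgf4, 0.76 for Etv4, −0.60 for Etv5 and −0.60 for Klhl13. Members were proposed with these libraries' results known, so no p-value is given. Among the other genes named, the same difference was −0.84 for Epha4 (adjusted p = 0.0251, edgeR) and −1.83 for Fgf10 (adjusted p = 0.02886). It was 0.75 for Grb2 (adjusted p = 0.004033) and −1.04 for Wdr44 (adjusted p = 0.02865). Zp3, at −0.83, was picked by nearness of profile to Klhl13 in these libraries, so no p-value is given for it. The Fgf10 value rests on 7 and 6 counts in the labelled KO libraries of 100 cells. The markers of brain cells gave 5.59 for Mbp (adjusted p = 2.464e-06) and 4.56 for Snap25 (adjusted p = 2.464e-06). The share of all tested genes with such a difference was 16.3%. Input and number of PCR cycles cannot be told apart in these differences.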

How the results depend on the processing

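A fit without 1 library leaves 1 in its group and takes its spread only from groups that keep 2. Calls gained or lost in such fits also depend on which groups those were. At 100 cells the chi-square per degree of freedom was 15.9 between the labelled WT libraries and 1.90 between the labelled KO libraries. The number of genes called at 100 cells changed as single libraries were left out. Leaving out 1 library moved it from 5756 to between 2102 and 9551 for labelled KO against WT at 100 cells, with 2 to 6 members called instead of 4. At 1000 cells the same step gave 5555 to 6418 genes against 6980, with 6 members called each time. For the difference between inputs it gave 727 to 5635 genes against 2745, with 0 to 5 members against 4. Within labelled WT it gave 6 to 2631 genes against 139, with 0 to 3 members against 0. The value of Fgfr1 relative to its region at 100 cells, −0.50, ranged from −0.75 to −0.22. Within labelled WT the count was 79 with library size alone, 212 in DESeq2, 463 with every gene of at least 1 count, 11 after thinning to the smallest total and 676 in 1 fit of all 8 libraries, where 1 member was called. Within labelled KO it was 5641 in DESeq2 against 8753, and 4 members instead of 7 were called in 1 fit of all 8 libraries. Library size alone moved the share of calls at 1000 cells that were higher from 50.3% to 39.3%. The cause of these changes was not tested.

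Deviations of libraries with the same replicate number correlated at −0.124 to 0.17 between groups, so the numbers were not taken to pair the libraries. With the replicate number as a block, 7427 genes were called at 1000 cells, 6434 at 100 cells, 285 within labelled WT, 8756 within labelled KO and 2684 for the difference between inputs, with 6, 5, 0, 6 and 4 members. Directions of genes near 0 turned for Etv5 at 1000 cells (0.008 and 0.03 without single libraries), Wdr44 at 1000 cells (0.14 when thinned, −0.27 to 0.27 without single libraries, 0.07 being another) and Spry1 at 100 cells (−0.35 to 0.34 without single libraries, 0.005 being another, and 0.0114 in 1 fit of all 8 libraries).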
